A study of Homo sapiens with 3 samples.

Results

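Gene expression in U2OS cells, a human osteosarcoma cell line, was compared between cells given a stable form of Set8b and cells given the empty retroviral vector. The comparison used 2 of the 3 arrays of the study: the array titled Set8_deltaPIP2, here stable Set8b, and the array titled pMSCV-vector, here vector. The third array, titled Wt-Set8b, came from cells transduced with wild-type Set8b and is given beside the other values. All 3 cultures were transduced with retrovirus and harvested 5 days later, so the vector cells had also been through infection. The labels name 1 sample per construct, so no difference has a replicate check, no test can be made, and the construct cannot be told apart from anything else that differed between 2 cultures or 2 arrays.

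Set8, the product of KMT5A, is the methyltransferase for lysine 20 of histone H4, to which it adds 1 methyl group, a mark of compact chromatin and of mitotic chromosomes. In normal cells the ubiquitin ligase CRL4-Cdt2 finds Set8 on chromatin through the replication clamp PCNA and marks it for destruction while DNA is copied. The stable form lacks the sequence that this ligase needs, so the enzyme can persist through S phase. Persistent Set8 is known to disturb the control of replication origins and chromosome compaction and to call up DNA damage signalling.

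The 4 probe sets of KMT5A disagreed. From the brightest to the dimmest, their log2 differences of stable Set8b from vector were -0.76, 0.90, 0.38 and 0.12. Their position against the transduced coding sequence was not analysed here, so KMT5A does not check the labels. Of 13 bone and mesenchymal markers 7 passed the filter on dim probe sets. VIM read 13006 with stable Set8b, 11123 with wild-type Set8b and 12787 with vector, and COL1A1 read 12894, 8855 and 10740. Others were not detected above the filter or were dim: COL1A2, TWIST1, SP7 and IBSP lay below the filter, and ALPL read 91.8, 46.2 and 37.7. The leukocyte markers PTPRC, CD14 and LYZ and the endothelial markers CDH5 and KDR lay below the filter. The 2 of 8 leukocyte markers past it, CD3D and CD79A, were 0.90 and 0.23 above vector, and of the 2 of 4 endothelial markers, PECAM1 was at 1.21 and VWF at -0.44. The keratin genes KRT8 and KRT18 were bright on all 3 arrays, between 3450 and 6617. Hybridisation spike-ins had a median ratio of 0.796 (stable Set8b over vector, 18 probe sets) and spike-ins added before labelling 0.467 (24 probe sets). For wild-type Set8b over vector these ratios were 1.01 and 0.441. In the first kind the stable array stood apart from both others, with a ratio of 0.784 over wild-type Set8b. In the second kind the vector array stood apart from both others. The part of these spike-in differences in the results was not tested.

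Values are quantile-normalized probe-set signals in arbitrary units, and each gene is given by its brightest probe set unless stated. Of 11783 genes measured, 616 (5.23%) had signals 2-fold or more above vector with stable Set8b, and 567 (4.81%) had signals 2-fold or more below it. The median log2 difference over all genes was -0.01, and 95% of genes lay between -1.27 and 1.37. For wild-type Set8b over the same vector array the same range ran from -0.71 to 0.79. With arrays centred on their medians in place of quantile normalization, the differences shifted by -0.11 and the counts became 503 higher and 717 lower, so the balance between the directions depends on the scaling. The last gene inside the 2-fold limit was ETV4 on the higher side and TLR6 on the lower side, and SPAG1 and STAG1 lay just outside.

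Different probe sets of a gene gave the only spread at hand. Among 5357 genes with 2 or more probe sets past the filter, probe sets of the same gene differed with a pooled SD of 0.393 log2. That figure compares probe sets within the same 2 arrays, and which transcripts they read was not checked. The spread between cultures is unknown. Every probe set was at least 2-fold higher for 88 of these genes (1.64%) and at least 2-fold lower for 66 (1.23%). Of the 202 genes called higher that had several probe sets, 182 had all of them above 0, and of the 190 called lower, 165 had all of them below 0. The other 414 higher and 377 lower genes rest on 1 probe set. Dim genes passed 2-fold more often: 8.93% of the dimmest 25% of genes were higher and 7.23% lower, against 2.44% and 3.22% of the brightest 25%. Signals under 50 may be background, and where one enters a difference this is said beside the value.

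**Figure D1:**
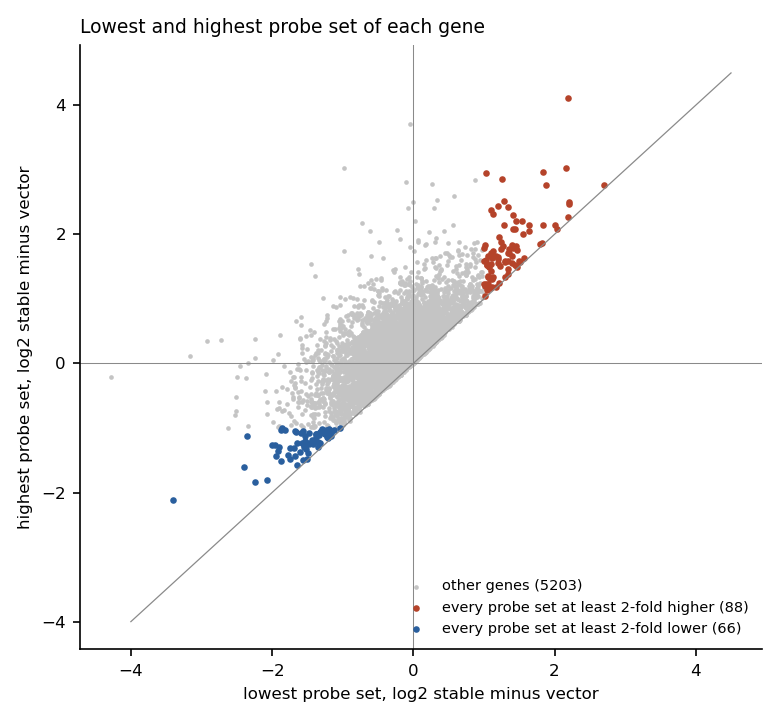
Lowest against highest probe-set difference (log2, stable Set8b minus vector) of each of the 5357 genes with 2 or more probe sets past the filter, with 1 point per gene. The 88 genes in red have every probe set at least 2-fold higher, the 66 in blue every probe set at least 2-fold lower, and the diagonal marks full agreement.

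Of the 25 higher and 25 lower genes ranked first by their weakest probe set, 16 and 13 stood in one of the gene lists. The higher ones included the surface receptor CD44 and the secreted IGFBP7, and the lower ones the replication factor RFC2 and the condensin subunit SMC2. CD44, the hyaluronan receptor, was read by 9 probe sets. Its brightest read 3208 with stable Set8b, 782 with wild-type Set8b and 717 with vector, and all 9 differences lay between 1.88 and 2.76, or 1.67 to 2.47 with signals under 50 set to 50. By this probe set the vector and wild-type arrays were close to each other and the stable array stood alone. IGFBP7, a secreted binding protein of insulin-like growth factors, read 2115, 486 and 324 on the same arrays, and its 2 probe sets were 2.71 and 2.76 above vector. GLIPR1, a secreted protein known as a p53 target, read 1956, 441 and 259, with 5 probe sets between 2.17 and 3.02, or 1.82 to 3.02 with signals under 50 set to 50. RGS4, which shortens signalling by G proteins, read 4890 with stable Set8b, 337 with wild-type Set8b and 282 with vector, but its 3 probe sets ranged from 2.19 to 4.12, so the direction is better fixed than the size.

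CNTNAP2, a neuronal adhesion protein of the neurexin family, ranked first among the lower genes by its weakest probe set. It read 56.9 with stable Set8b, 335 with wild-type Set8b and 246 with vector, and its 4 probe sets lay between -3.40 and -2.11. On 3 of those 4 the stable signal was under 50, and with signals under 50 set to 50 the range was -2.24 to -2.07. PLCE1, a phospholipase downstream of Ras, read 305, 783 and 954, with 2 probe sets at -1.65 and -1.57. TGFBR3, the co-receptor betaglycan for TGF-beta ligands, read 102, 335 and 374, with probe sets at -1.87 and -1.50. TMPO, which encodes lamina-associated polypeptides of the nuclear envelope, read 1008, 2908 and 2987, and its 3 probe sets lay between -1.57 and -1.49. By the brightest probe set the wild-type value lay between -0.29 and -0.04 from vector in PLCE1, TGFBR3 and TMPO. For CNTNAP2 it lay 0.44 above vector. The stable value lay far below both others in all 4 genes.

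A few more genes with at least 4 probe sets had every one past 2-fold. They were picked out after their values were seen. MKI67, the proliferation antigen Ki-67 that coats mitotic chromosomes, read 307 with stable Set8b, 878 with wild-type Set8b and 986 with vector, with 4 probe sets between -1.68 and -1.05. GPSM2, which orients the spindle, had 4 probe sets between -1.29 and -1.01, and JADE1, a subunit of a histone acetyltransferase complex, 4 between -1.53 and -1.12. On the higher side were PAPPA, a protease that frees insulin-like growth factors from their binding proteins (4 probe sets, 1.41 to 2.09), and SLFN5 of the Schlafen family (4 probe sets, 1.02 to 2.96). Their ranges with signals under 50 set to 50 were 1.12 to 1.83 and 1.02 to 2.06.

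Across the 25 higher genes ranked first by their weakest probe set, the vector signal ran from 44.0 to 1361 and the stable signal from 158 to 4890. The wild-type array gave differences from vector between -0.27 and 0.97 for them, and 0 of 25 passed 2-fold there by the brightest probe set. Across the 25 lower genes ranked first, the wild-type differences ran from -0.77 to 1.36, and 1 of them, the chemokine gene CXCL14, was over 2-fold above vector there. CXCL14 read 124 with stable Set8b, 780 with wild-type Set8b and 305 with vector. The comparisons of wild-type and of stable Set8b share the vector array, so their values are given side by side only.

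**Figure D2:**
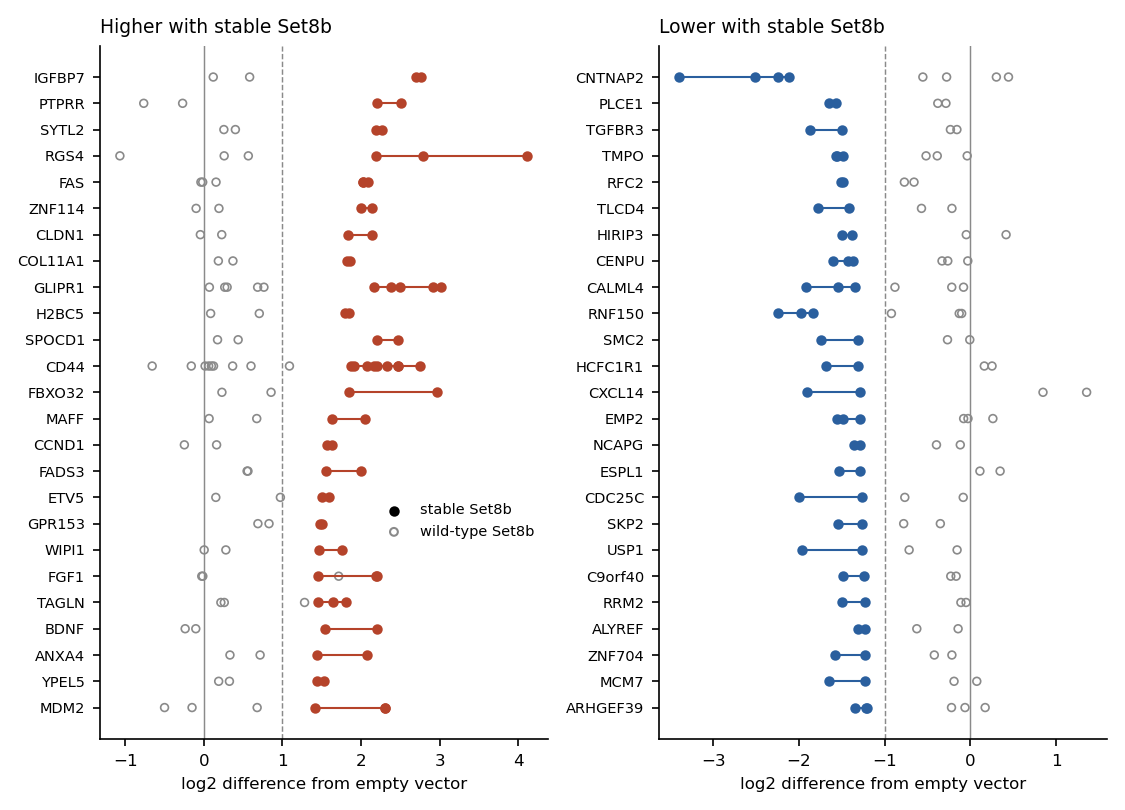
Log2 difference from vector of every probe set of the 25 higher and 25 lower genes ranked first by their weakest probe set, for stable Set8b (filled) and wild-type Set8b (open), with dashed lines at 2-fold. The filled points of CD44 span 1.88 to 2.76 and those of CNTNAP2 span -3.40 to -2.11.

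p53 is the transcription factor that answers DNA damage by switching on genes of arrest, death, repair and metabolism, with MDM2, its own ubiquitin ligase, among its targets. Of 104 measured genes in 5 lists of its targets, 34 passed 2-fold upward and 1 downward. Over all genes 5.23% were 2-fold higher and 4.81% lower, and the counts of every list below stand against these shares. The median of the 104 was 0.62 against -0.01 over all genes. All lists were chosen with earlier results of these data known. The arrest list had 5 of 13 higher and 0 lower (median 0.79). The largest of the 5 lists had 21 of 48 higher and 0 lower (median 0.70). It is named for targets in metabolism, lysosomes and redox control but also holds FAS, TLR3, HBEGF and CYFIP2. FAS is counted in the list of death genes too. Among death receptors and mitochondrial death genes 3 of 20 were higher (median 0.49), among feedback genes 2 of 14 (median 0.58), and among repair genes 4 of 13 with 1 lower (median 0.56). With wild-type Set8b 0 members of these 5 lists passed 2-fold, and the list medians lay between -0.07 and 0.13.

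Several p53 targets were read alike by all their probe sets. FAS, a death receptor at the cell surface, read 793 with stable Set8b, 208 with wild-type Set8b and 187 with vector, and its 3 probe sets lay between 2.03 and 2.08. ZMAT3, an RNA-binding target of p53, read 2586, 596 and 512, with 5 probe sets between 1.28 and 2.51, or 1.18 to 2.51 with signals under 50 set to 50. MDM2 read 3621, 1227 and 1361, with 3 probe sets between 1.41 and 2.30. The stable array was the highest for each of them, and the wild-type and vector arrays lay close together. PLK3, a stress-activated kinase, read 267, 142 and 89.6, and CYFIP2, a regulator of actin assembly, read 3401, 1492 and 1138; for these genes the wild-type value lay somewhat above vector, by 0.66 and 0.39. CDKN1A, the inhibitor p21, has 1 probe set past the filter and read 6590 with stable Set8b, 1891 with wild-type Set8b and 1052 with vector. Its wild-type difference from vector, 0.85, was the largest among the measured members of these 5 lists.

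BAX, which opens mitochondria in cell death, lay just under 2-fold by its brightest probe set, at 982 with stable Set8b, 853 with wild-type Set8b and 491 with vector, so stable Set8b stood nearer to wild-type than to vector. SESN2, a stress sensor of the growth kinase mTOR, was 1.09 above vector and its probe sets lay at 1.09 and 1.30. FBXO22 (0.61), PPM1D (0.64), CDIP1 (0.79) and BID (0.41) lay above 0 and under 2-fold by their brightest probe set. Not every target was above vector. GPNMB (0.16) and REV3L (0.03) lay near 0. SIVA1, a death gene, lay at -0.81 with its 3 probe sets between -0.89 and -0.65. FANCC was 2-fold lower (-1.02, 1 probe set).

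**Figure D3:**
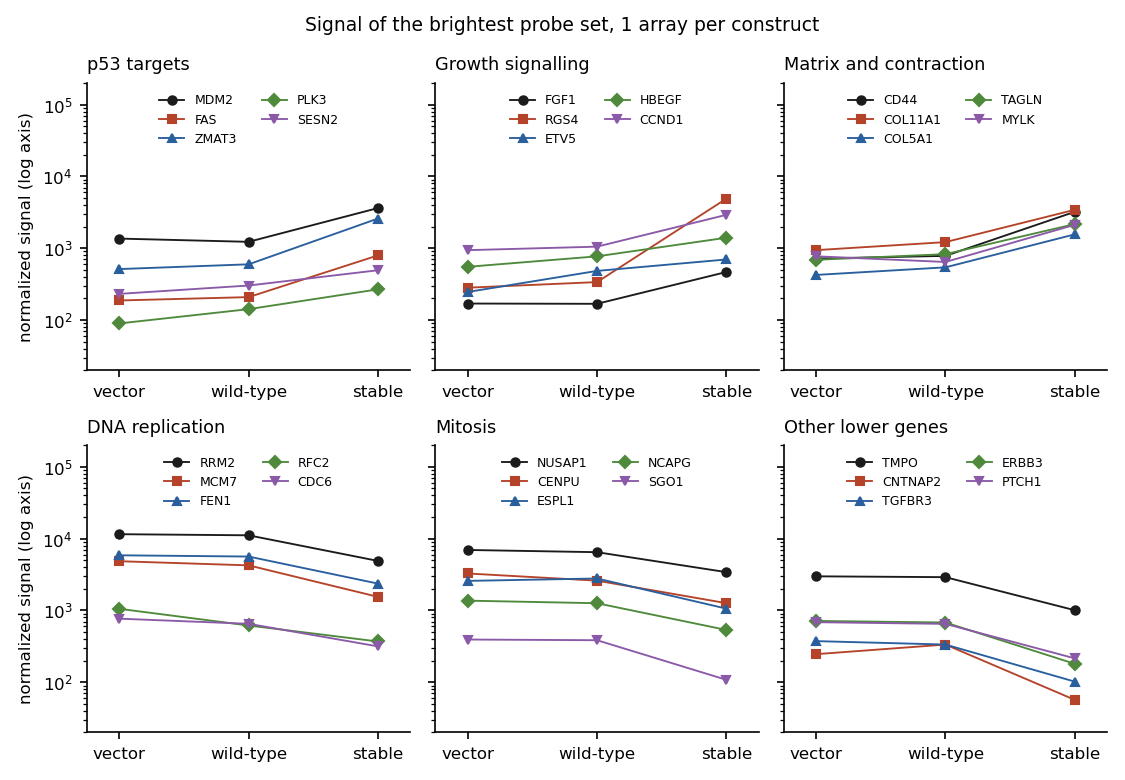
Normalized signal (log axis) of the brightest probe set on the vector, wild-type and stable Set8b arrays, 1 array each, for 5 genes of each of 6 groups, with lines joining the points of a gene. In the upper panels the stable array is the highest for every gene (MDM2 3621 against 1361 with vector), and in the lower panels it is the lowest (RRM2 4898 against 11538).

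DNA replication genes were lower with stable Set8b. Origins are licensed in G1 by the origin recognition complex, CDC6 and CDT1, which load the MCM helicase, and forks then recruit polymerases, clamps and clamp loaders. Of 79 measured genes in the 3 lists of this machinery, 26 passed 2-fold downward and 0 upward, 71 lay below 0, and the median was -0.84. Over all genes 4.81% passed 2-fold downward and 5.23% upward. Licensing had 11 of 19 lower (median -1.18), forks and polymerases 11 of 42 (median -0.87), and nucleotide supply 4 of 18 (median -0.27). With wild-type Set8b the 3 medians were -0.15, -0.10 and -0.03.

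MCM7, a subunit of the MCM helicase, read 1547 with stable Set8b, 4246 with wild-type Set8b and 4849 with vector, and its probe sets lay at -1.65 and -1.23. MCM5 was at -1.33 and -1.11, and the 4 probe sets of MCM4 ranged from -1.64 to -0.67. CDC6, a loader of the helicase, read 316, 651 and 768, but its second probe set was at -0.54. CDT1, the other loader and itself a target of CRL4-Cdt2, read 453, 760 and 1195, so the wild-type array lay between the others, at -0.65 from vector. RFC2, of the clamp loader, showed the same order, at 370, 617 and 1053, with probe sets at -1.51 and -1.49. FEN1, which trims flaps from Okazaki fragments, read 2367, 5633 and 5862, and the fork protector TIMELESS 749, 1609 and 1804; in both the wild-type value lay near vector.

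Among nucleotide supply genes 4 of 18 passed 2-fold downward. RRM2, the S-phase subunit of ribonucleotide reductase, read 4898 with stable Set8b, 11132 with wild-type Set8b and 11538 with vector, with probe sets at -1.50 and -1.24. TK1, thymidine kinase, had probe sets at -1.05 and -1.01, and DUT, which removes dUTP, 3 between -1.39 and -0.70. TYMS, thymidylate synthase, lay at -0.84 and RRM1, the large reductase subunit, at -0.66 by their brightest probe sets, with their other probe sets at -1.41 and -1.44. SAMHD1, which breaks down nucleotides, lay between -0.40 and -0.26 in 4 probe sets, so its distance from vector was smaller than that of RRM2.

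Mitotic genes were lower too, with more genes called than in DNA replication but from a larger set of lists. In mitosis condensin compacts chromosomes, kinetochores built on centromeres attach them to the spindle, the checkpoint holds anaphase until all are attached, and the anaphase-promoting complex then frees separase to cut cohesin. Of 155 measured genes in 6 lists of this machinery, 47 passed 2-fold downward and 0 upward, 140 lay below 0, and the median was -0.77. The shares over all genes were 4.81% downward and 5.23% upward. All 36 measured kinetochore and centromere genes lay below 0, and 19 of them were at least 2-fold lower (median -1.06). Condensin and cohesin had 8 of 22 lower (median -0.81), the checkpoint and mitotic kinases 7 of 21 (median -0.89), and the anaphase-promoting complex and cytokinesis 6 of 32 (median -0.63). Centriole and centrosome genes had 2 of 31 (median -0.61), a share of 6.45% that is near that of all genes. Mitotic kinesins had 5 of 14 lower (median -0.89), while of 17 other kinesins, motors that carry cargo, 0 passed 2-fold in either direction (median 0.12).

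CENPU, of the inner kinetochore, read 1264 with stable Set8b, 2599 with wild-type Set8b and 3272 with vector, and its 3 probe sets lay between -1.60 and -1.37. KNL1, the outer scaffold on which the checkpoint assembles, read 714, 1648 and 1986, with 3 probe sets between -1.74 and -1.48, the weakest at -0.63 with signals under 50 set to 50. SGO1, the shugoshin that protects centromeric cohesin, read 108, 385 and 394 by its brightest probe set (-1.86), and its other probe set was at -1.01. For each of these 3 genes the stable array was the lowest and wild-type lay between -0.33 and -0.03 from vector. SMC2, a core subunit of condensin, read 308, 860 and 1035, and NCAPG, which binds the condensin ring, 535, 1260.4 and 1369. ESPL1, the protease separase, read 1060.3, 2786 and 2581, with probe sets at -1.54 and -1.28, so here wild-type lay slightly above vector.

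Some mitotic genes differed less. AURKA, the kinase of spindle poles, was at -0.63 and -0.49, and MAD2L1, a checkpoint protein, at -0.27 by its brightest probe set although another was at -1.35. BIRC5, survivin, had 4 probe sets between -1.07 and -0.62. NUSAP1, a spindle protein, read 3417, 6479 and 6959 (-1.03), and KIF2C, a kinesin that takes microtubules apart at kinetochores, 1571, 3344 and 3238 (-1.04). KIF22, a kinesin that pushes chromosome arms, was at -1.61 by 1 probe set and -0.08 by the other, so its value depends on the probe set. The tubulin genes TUBB (-0.09) and TUBA1C (-0.08), which supply the spindle's building blocks, lay near 0 by their brightest probe sets, though a dimmer one of TUBB was at -0.76.

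Some promoters of the lower cell cycle genes hold short motifs known from cell cycle control, which the choice of genes did not use. Bases just before the start of transcription are shown for 7 lower genes and 1 higher gene whose windows hold a match, chosen after the matches were seen. Sequences are those of RefSeq on GRCh38.p14, 5′ to 3′ along the gene, 120 bases each ending at the base before the annotated start. Capitals mark TTTGAA, the core of the cell cycle genes homology region, CCAAT, the box bound by NF-Y, the E2F letters TTTGGCGC, TTTCCCGC, TTTCGCGC or TTTGCCGC, and the AP-1 letters TGAGTCA or TGACTCA, each on either strand. Windows lie at chr12:53268179-53268298 (plus strand) for ESPL1, chr1:108876865-108876984 (plus strand) for GPSM2, chr4:17810859-17810978 (plus strand) for NCAPG and chr10:128126424-128126543 (minus strand) for MKI67. Those of MCM7, HELLS, DNAJC9 and ISG20 lie at chr7:100101398-100101517 (minus strand), chr10:94545668-94545787 (plus strand), chr10:73247256-73247375 (minus strand) and chr15:88638896-88639015 (plus strand).
ESPL1: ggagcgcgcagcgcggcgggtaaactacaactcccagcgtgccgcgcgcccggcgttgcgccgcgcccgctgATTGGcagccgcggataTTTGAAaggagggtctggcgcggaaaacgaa
GPSM2: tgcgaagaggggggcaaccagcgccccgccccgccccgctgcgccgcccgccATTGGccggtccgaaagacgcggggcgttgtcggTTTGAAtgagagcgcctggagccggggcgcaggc
NCAPG: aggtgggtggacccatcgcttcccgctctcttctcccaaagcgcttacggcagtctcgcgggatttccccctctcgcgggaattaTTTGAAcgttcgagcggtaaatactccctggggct
MKI67: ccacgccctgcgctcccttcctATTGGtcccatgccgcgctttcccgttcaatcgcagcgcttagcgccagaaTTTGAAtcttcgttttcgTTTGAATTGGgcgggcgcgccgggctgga
MCM7: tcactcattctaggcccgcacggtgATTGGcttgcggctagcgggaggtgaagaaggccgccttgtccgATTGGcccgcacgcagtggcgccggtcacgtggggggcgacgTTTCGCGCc
HELLS: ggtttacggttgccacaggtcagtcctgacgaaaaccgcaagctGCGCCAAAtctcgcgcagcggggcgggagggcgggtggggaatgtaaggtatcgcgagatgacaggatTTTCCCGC
DNAJC9: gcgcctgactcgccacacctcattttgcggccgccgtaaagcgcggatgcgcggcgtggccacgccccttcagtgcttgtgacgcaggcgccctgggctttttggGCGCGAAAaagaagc
ISG20: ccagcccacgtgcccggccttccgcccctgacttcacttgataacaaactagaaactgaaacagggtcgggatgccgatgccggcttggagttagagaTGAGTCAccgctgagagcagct

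In ESPL1, GPSM2, NCAPG and MKI67, all lower and all of mitosis, TTTGAA begins between 29 and 47 bases before the start: at -31, -34, -35 and, in MKI67, at -47 and -29. ESPL1 has the CCAAT box on the opposite strand upstream of it, at -48, and GPSM2 has it at -68. In MKI67 the second TTTGAA and a CCAAT box on the opposite strand overlap in the run TTTGAATTGG. MCM7, HELLS and DNAJC9 hold no TTTGAA in the printed bases but E2F letters close to the start, at -9 in MCM7, at -76 and -8 in HELLS and at -15 in DNAJC9. HELLS, a chromatin remodeller needed for DNA methylation, read 149 with stable Set8b, 270 with wild-type Set8b and 431 with vector. DNAJC9, a histone chaperone, had probe sets at -1.23 and -1.14. ISG20, a higher gene, holds AP-1 letters at -22.

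Over the first listed promoter of each gene (300 bases, 250 before the start and 50 after), TTTGAA stood in 23.1% of 52 promoters of genes with every probe set lower, in 10.4% of 67 with every probe set higher, in 9.86% of 9627 promoters of measured genes and in 15.4% of 27305 promoters of the table. E2F letters stood in 9.62%, 5.97%, 5.53% and 3.33% of the same promoters, and CCAAT in 40.4%, 40.3%, 36.6% and 35.7%. Over genes called by their brightest probe set, TTTGAA stood in 18.5% of 449 lower and 10.7% of 458 higher promoters, and E2F letters in 11.4% and 3.28%. AP-1 letters stood in 1.56% of those lower and 7.21% of those higher promoters, against 3.07% of measured genes, and TATAAA in 6.46% and 13.5%, against 5.32%. The shares differed between lists. List shares cover every measured member with a promoter, whether or not it passed 2-fold, so they describe the lists and not the differences between arrays. Mitotic kinesins held TTTGAA in 64.3% of 14 promoters and E2F letters in 7.14%. Origin licensing genes held TTTGAA in 0 of 17 promoters and E2F letters in 47.1%, and fork genes held them in 3.03% and 39.4% of 33. Among other mitotic lists, kinetochore genes held them in 43.3% and 13.3% of 30, and condensin and cohesin genes in 38.9% and 16.7% of 18. Homologous recombination and Fanconi genes, many of them lower, held each in 11.5% of 26. That is near the 9.86% of all measured genes for TTTGAA but above their 5.53% for E2F letters. The p53 consensus, searched over both strands, stood in 1 of 458 higher promoters and in 3 of 9627 promoters of measured genes. A match is a string of letters and does not show a bound site.

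**Figure D4:**
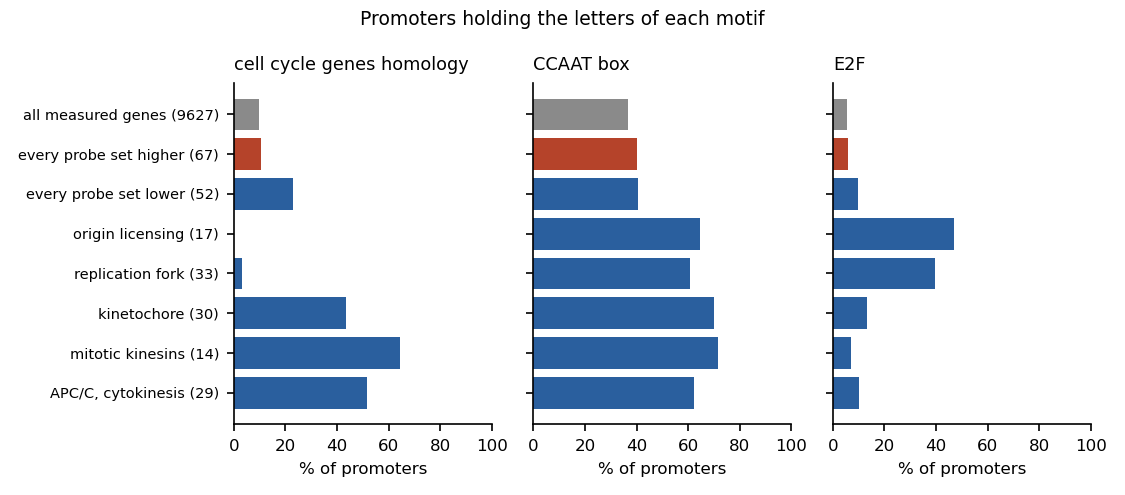
Percent of promoters (300 bases around the start, number of promoters in brackets) that hold TTTGAA, the box CCAAT or E2F letters on either strand, for all measured genes, for genes with every probe set higher or lower with stable Set8b, and for 5 lists of replication and mitosis genes. TTTGAA stands in 64.3% of mitotic kinesin promoters and 0% of origin licensing promoters, and E2F letters in 7.14% and 47.1%.

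Regulators of the cell cycle moved unevenly. E2F factors switch on the S-phase genes, pocket proteins hold them back, and the DREAM complex silences cell cycle genes in resting cells. Of 18 measured genes of this list 5 passed 2-fold downward and 0 upward (median -0.68), but E2F3 (-0.04) and TFDP2 (0.18) lay near 0, and E2F1 was at -0.56 by its brightest probe set. CDC25C, the phosphatase that starts mitosis, read 322 with stable Set8b, 732 with wild-type Set8b and 776 with vector, and CDC25A, its counterpart for S phase, 352, 747 and 952. SKP2, which destroys CDK inhibitors, read 2106, 3979 and 5077, and WEE1, the kinase that restrains CDK1, 705, 1284 and 1585. CCNA2, cyclin A, was lower in both probe sets (-1.32 and -1.07). Cyclin D1 went the other way: CCND1 read 2913, 1051 and 939, with probe sets at 1.63 and 1.57, and the 4 probe sets of CCND2 ranged from 0.75 to 1.38. Cyclins as a list had 1 of 21 higher and 2 lower.

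Genes of the ligase that degrades Set8 did not pass 2-fold by their brightest probe sets. DTL, which encodes Cdt2, read 914 with stable Set8b, 1543 with wild-type Set8b and 1786 with vector, at -0.97, and its other probe set was at -1.21. Of 14 measured genes of the ligase and its substrates, CDKN1A was the 1 that passed 2-fold upward and CDT1 the 1 downward, and the median was -0.45. Among 14 enzymes and readers of H4 lysine 20 methylation 2 were lower and 0 higher (median -0.25). KMT5B, which adds further methyl groups to this lysine, had probe sets at -0.38 and -0.08, and RSBN1, a demethylase of this mark, 5 probe sets between -0.44 and -0.10.

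DNA repair genes differed by pathway. Homologous recombination and Fanconi genes, which repair broken forks, had 14 of 31 members at least 2-fold lower and 1 higher (median -0.95). BRIP1, a helicase partner of BRCA1, read 730 with stable Set8b, 1535 with wild-type Set8b and 1616 with vector, with probe sets at -1.38 and -1.15, and BARD1, the partner of BRCA1 in its ligase, read 430, 940 and 1085. The exception was RAD51B, at 1.68 by its brightest probe set and 0.51 by the other. Checkpoint kinases and mediators had 3 of 16 lower (median -0.34), among them CLSPN at -1.59, whose other probe sets reach -0.43. Mismatch, excision and end-joining genes had 2 of 34 lower and 1 higher (median -0.15): POLQ, the polymerase of alternative end joining, was at -1.13 and -1.03, and DDB2, a damage sensor and p53 target, at 1.33.

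Chromatin genes were lower where they serve replication or silencing. Histone chaperones and histone RNA factors had 6 of 22 members at least 2-fold lower (median -0.60), DNA methylation genes 4 of 13 (median -0.51), and polycomb and H3K9 methylation genes 4 of 22 (median -0.48), with 0 higher in each. CHAF1A, which places new histones behind forks, had 3 probe sets between -1.82 and -1.03, ANP32E, a chaperone of the variant H2A.Z, 3 between -1.87 and -1.03, and EHMT2, an H3K9 methyltransferase, 2 at -1.38 and -1.10, the latter at -0.40 with signals under 50 set to 50. SUZ12 (-0.46) and CBX5 (-0.37), a polycomb and a heterochromatin protein, lay less far below 0. Lysine demethylases had 0 of 22 lower and 2 higher (median 0.06): KDM5B, which removes H3K4 methylation, read 416 with stable Set8b, 214 with wild-type Set8b and 187 with vector, with 3 probe sets between 1.11 and 1.72. HDAC9, a class II deacetylase, was the single higher gene of the acetylation list, at 403, 144 and 129.6, while KAT5 had 3 probe sets between -0.99 and -0.56.

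Most histone genes past 2-fold were higher, and the 1 lower was a linker histone gene. H2BC5, an H2B gene whose transcripts can be polyadenylated, read 2890 with stable Set8b, 1314 with wild-type Set8b and 806 with vector, so wild-type lay between the others. Of 12 measured genes of the core histone list 6 passed 2-fold upward and 1 downward (median 0.85), but 40 of the 52 listed had no probe set past the filter. The lower one was H1-10, a linker and not a core histone, listed with them, at 1264, 5623 and 4574. Near-identical histone genes can share probes, so a single member is uncertain. At the nuclear envelope 3 of 32 lamina, importin and HMG genes were lower (median -0.45), with TMPO and HMGB3 (632, 1759 and 1782) among them, while HMGA1 was at 0.36 and 0.45. Nuclear pore genes had 0 of 28 lower and 1 higher, with 23 below 0 (median -0.33).

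**Figure D5:**
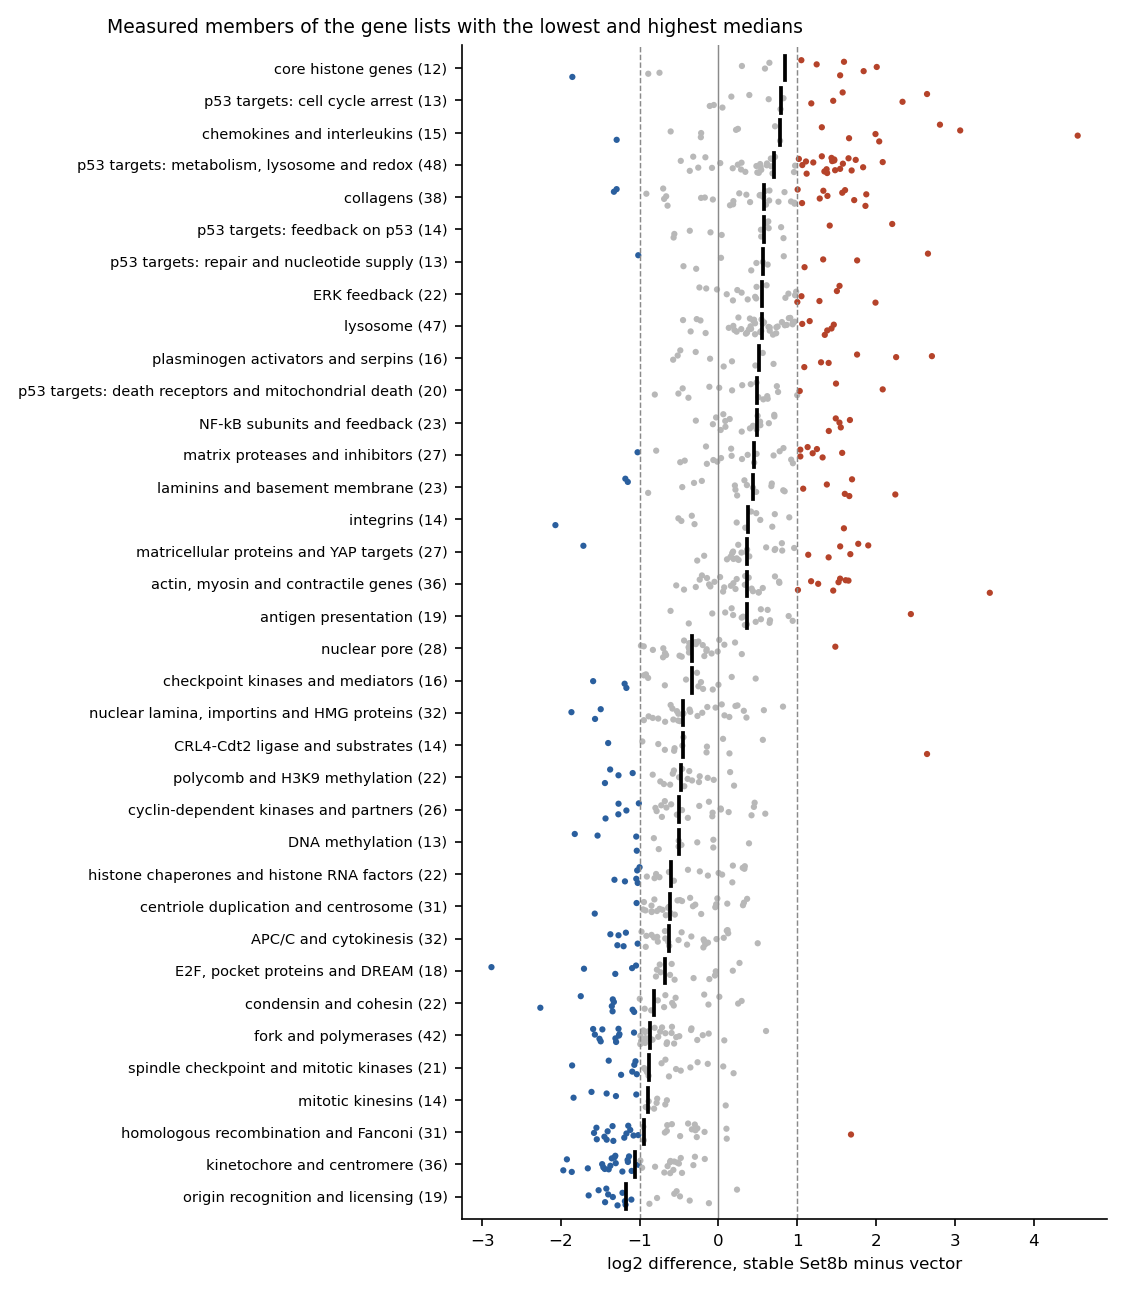
Log2 difference of stable Set8b from vector for each measured member (1 point, brightest probe set) of the 18 lists with the lowest and the 18 with the highest medians among lists of at least 10 measured genes, black bars marking the medians and dashed lines 2-fold. Origin licensing has the lowest median (-1.18). The core histone list, which includes the linker histone gene H1-10 and has 12 of 52 measured, has the highest (0.85).

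Feedback regulators of the ERK pathway, which growth factor receptors switch on, were higher. Of 22 measured ERK feedback genes 6 passed 2-fold upward and 0 downward (median 0.55). ETV5, an ETS factor that ERK signalling induces, read 696 with stable Set8b, 483 with wild-type Set8b and 246 with vector, and its relative ETV4 223, 161 and 112, so in both the wild-type value lay between the others. HBEGF, a ligand of the EGF receptor, read 1398, 770.1 and 551. FGF1, a fibroblast growth factor, read 466, 168 and 169.5, with 3 probe sets between 1.46 and 2.20 and a wild-type difference from vector of -0.01 by the brightest, though 1.72 by another. PTPRR, a phosphatase that acts on ERK, read 771, 139 and 168. MAFF, a small Maf factor induced by growth factors and stress, read 2449, 939 and 588. ERBB3, a receptor of neuregulins, was the lower gene of the EGF family, at 181, 679 and 714, though its other probe set was at -0.90.

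Other signalling lists held genes of both directions. G protein regulators had 5 of 26 members higher and 1 lower, RGS4 the highest and RGS17 the lower (-1.08). Guidance receptors and ligands had 4 of 33 higher and 1 lower: SEMA7A, a semaphorin tethered to the membrane, read 866 with stable Set8b, 388 with wild-type Set8b and 221 with vector, and EPHA2, an ephrin receptor, 1731, 1088 and 665. FGF, PDGF and VEGF genes had 2 of 28 in each direction (7.14%), near the 5.23% higher and 4.81% lower over all genes. Among them KITLG, the ligand of the receptor KIT, read 813, 252 and 228. BDNF, a neurotrophin, read 547, 111 and 119, with probe sets at 2.20 and 1.55, the latter at 1.46 with signals under 50 set to 50.

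Developmental signalling was lower where it passed 2-fold, with 1 exception. Wnt genes had 4 of 30 members lower and 1 higher, WNT10B at 1.04 (median -0.08). FZD7, a Wnt receptor, read 243 with stable Set8b, 530.1 with wild-type Set8b and 484 with vector, while FZD2 was at -1.73 by 1 probe set and -0.27 by the other. Notch and Hedgehog genes had 3 of 25 lower and 0 higher (median -0.33). PTCH1, the Hedgehog receptor and a target of the pathway, read 215 with stable Set8b, 650.2 with wild-type Set8b and 686 with vector, and its other probe set was at -0.38.

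Extracellular matrix genes were higher in many families. Of 171 measured genes in 7 matrix lists, 40 passed 2-fold upward and 7 downward, and the median was 0.42. The shares of all genes were 5.23% upward and 4.81% downward. Collagens had 10 of 38 higher and 2 lower (median 0.58), plasminogen activators and serpins 6 of 16 and 0 (median 0.52), matrix proteases and inhibitors 7 of 27 and 1 (median 0.45), laminins and basement membrane 6 of 23 and 2 (median 0.44), matricellular proteins and YAP targets 6 of 27 and 1 (median 0.36), proteoglycans 5 of 27 and 0 (median 0.22), and integrins 1 of 14 and 1 (median 0.38). With wild-type Set8b the medians of these 7 lists lay between -0.08 and 0.28.

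COL11A1, a fibrillar collagen of cartilage, read 3426 with stable Set8b, 1215 with wild-type Set8b and 939.9 with vector, with probe sets at 1.87 and 1.83. COL5A1, which starts collagen fibrils, read 1558, 541 and 424, and the basement membrane chain COL4A1 1640, 834 and 629. COL3A1 went the other way, at 696, 1505 and 1706, and its 4 probe sets ranged from -1.63 to -0.60, or -1.29 to -0.60 with signals under 50 set to 50, so the collagen family did not move as a whole. FN1, fibronectin, was at 1.54 by its brightest probe set, with 5 probe sets from 0.45 to 1.71, and THBS1, thrombospondin, at 1.67 with 4 from 0.91 to 1.67. CCN3, a matricellular growth regulator, had probe sets at 1.77 and 1.24. TFPI2, an inhibitor of plasmin, read 935, 333 and 379, and F2R, the thrombin receptor, 367, 255 and 173. Lower members included TNS3 (-1.72), a focal adhesion protein, and LAMA5 (-1.15), a laminin chain, each by 1 probe set. The integrin chain ITGB4 read 27.7 with stable Set8b against 116 with vector, a difference of -1.22 with the dim signal set to 50.

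Contractile genes were higher beside the matrix. Of 36 measured actin, myosin and contractile genes 9 passed 2-fold upward and 0 downward (median 0.36). TAGLN, a smooth muscle actin-binding protein, read 2164 with stable Set8b, 826 with wild-type Set8b and 689 with vector, with 3 probe sets between 1.46 and 1.82, or 1.46 to 1.65 with signals under 50 set to 50. MYLK, the kinase that activates myosin, read 2115, 643 and 771, and TPM2, a tropomyosin, 11714, 5691 and 5821. Wild-type and vector lay near each other in all 3 genes by the brightest probe set. ZYX (0.77 and 0.80) and TLN1 (0.72 and 0.60), which link actin to adhesions, lay above 0 and under 2-fold. Tubulins and microtubule regulators had 0 of 27 in either direction (median 0.02).

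Adhesion genes were mixed. Cadherins had 4 of 17 higher and 1 lower: CDH11, the cadherin of osteoblasts, read 367 with stable Set8b, 156 with wild-type Set8b and 150 with vector, and PCDH18 read 55.5, 173 and 262. CLDN1, a tight junction claudin, read 450.2, 148 and 127, with probe sets at 2.14 and 1.83. DSP, desmoplakin, read 375, 37.5 and 22.8, which is 2.91 above vector with the dim signals set to 50. NCAM1, an adhesion protein of nerve and muscle, was lower (-1.04 and -0.99). Among factors of mesenchymal transition SNAI2, which represses epithelial cadherin, read 951, 194 and 170 by 1 probe set, while TCF4 was at -1.23 with 7 probe sets from -1.23 to -0.32. EPCAM, an epithelial marker, read 169, 425 and 431.

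Lysosome and autophagy genes were shifted up by small amounts. Of 47 measured lysosome genes 42 lay above 0, 6 of them by 2-fold or more, and 0 were lower by as much (median 0.55). Proton pump subunits ATP6V1A (0.58 and 0.60), ATP6V1H (0.46 and 0.89) and the accessory protein ATP6AP2 (0.64 and 0.75) were under 2-fold in every probe set. CTSB, the protease cathepsin B, had 5 probe sets between 0.55 and 0.85, and PSAP, from which activators of lipid breakdown are cut, 2 at 0.68 and 0.81. Autophagy genes had 5 of 35 higher and 0 lower (median 0.25). WIPI1, which helps to form autophagosomes, read 776 with stable Set8b, 231 with wild-type Set8b and 230.1 with vector, with probe sets at 1.75 and 1.47. MAP1LC3B lay at 0.79 and 0.85, and ATG5 (-0.49) and ATG10 (-0.64) lay below 0, so the list did not move as 1 block.

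Secreted signals held some of the largest differences. Chemokines and interleukins had 7 of 15 measured members at least 2-fold higher and 1 lower (median 0.78), but 24 of the 39 listed had no probe set past the filter. The wild-type array also lay above vector for this list, with a median of 0.54 and 2 of 15 past 2-fold. NF-kB subunits and feedback genes had 5 of 23 higher and 0 lower (median 0.48): NFKBIZ, a nuclear partner of NF-kB, read 1782 with stable Set8b, 662 with wild-type Set8b and 561 with vector, and CYLD, a deubiquitinase that restrains the pathway, 422, 119 and 144. TGF-beta, BMP and growth differentiation factors had 4 of 46 higher and 5 lower (median -0.11), so the 2 higher members named next do not stand for that list. GDF15, a stress hormone of the TGF-beta family, read 2122, 190 and 72.6 by 1 probe set. INHBA, an activin subunit, read 3020.2, 1277 and 1056, with 3 probe sets between 1.10 and 2.37. CD274, the immune checkpoint ligand PD-L1, read 379, 82.0 and 69.7, with probe sets at 2.44 and 1.20, the latter at 0.63 with signals under 50 set to 50. It was the 1 higher gene of 19 measured in the antigen presentation list, where 0 were lower.

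Interferon-stimulated genes did not follow. Of 33 measured, 1 passed 2-fold upward and 3 downward (median 0.13). ISG20, an RNA exonuclease, read 397 with stable Set8b, 262 with wild-type Set8b and 181 with vector. IFIT1, which binds foreign RNA, read 73.9, 213 and 325 by 1 probe set, and the RNA sensor IFIH1 51.1, 105 and 107. CMPK2 read 24.1 against 80.7 with vector and is not 2-fold lower with the dim signal set to 50 (-0.69). IFIT3 (0.52 and 0.36) and GBP1 (3 probe sets between 0.78 and 0.93) lay above 0.

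Several lists of metabolism and protein folding held few or 0 genes past 2-fold. Over all genes 5.23% were higher and 4.81% lower, so short lists would hold few such genes in any case. Fatty acid oxidation and the TCA cycle (31 genes, median -0.03), chaperones of the unfolded protein response (24, median 0.13) and metallothioneins (8, median -0.04) had 0 members past 2-fold in either direction. Glycolysis had 2 of 28 higher and 0 lower (median 0.10), with HK2, hexokinase 2, at 524, 395 and 225, so that wild-type was 0.81 above vector. Ribosome biogenesis had 1 of 33 lower, UBTF (-1.01, with 4 probe sets from -1.01 to -0.22), and 0 higher, with 25 above 0. Amino acid and serine synthesis had 1 of 26 higher, the p53 target SESN2, while SLC7A11, the cystine transporter, had 3 probe sets between -1.17 and -0.81. FADS3, of the fatty acid desaturase family, read 1366 with stable Set8b, 682 with wild-type Set8b and 465 with vector, and AKR1B10, an aldo-keto reductase, 402, 98.3 and 85.4. Channels had 6 of 32 higher and 2 lower, KCNK1, a potassium channel, at 1416, 776 and 660.0.

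Of the 2314 listed symbols, 1778 were measured, and 174 of the 616 genes called higher and 160 of the 567 called lower stood in a list. Among genes with every probe set past 2-fold, 47 of 88 higher and 35 of 66 lower were in none of the lists. Some stand among those ranked first. SYTL2, an effector of Rab27 in vesicle release, read 1485 with stable Set8b, 429 with wild-type Set8b and 324 with vector. FBXO32, a ubiquitin ligase known from muscle wasting, read 158, 51.7 and 44.0, a dim signal on 2 of the 3 arrays. RNF150, a RING finger protein, read 198, 658 and 706, with 3 probe sets between -2.24 and -1.84, or -1.98 to -1.33 with signals under 50 set to 50. EMP2, a membrane protein that traffics integrins, read 803, 2707 and 2258, with 3 probe sets between -1.55 and -1.29. USP1, which removes ubiquitin from FANCD2 and PCNA, read 1664, 3584 and 3993, and HIRIP3, a partner of the histone chaperone HIRA, 320, 873 and 904.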

How the data were processed

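Each of the 3 arrays gives intensity values for 54675 probe sets, as deposited by the authors. From the values, each array had been scaled to a trimmed mean of about 250.04 (2% trimmed at each end). For the program, a name was not given in the sources used here.

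Control probe sets (62) were dropped, the 3 arrays were quantile normalized, signals under the 20th percentile were set to it (7.7) for the log2 values, and log2 was taken. The platform annotation gave 1 symbol for 41091 of 54613 probe sets, several for 1801 and none for 11721. Those with 1 symbol and a mean log2 at or above their median (a signal of 51.4) were kept, 20546 for 11783 genes, and the brightest stood for its gene. A gene counted as higher or lower at 2-fold, with 1 array per group and so no p-value. Genes were named by rule: KMT5A; of genes with every one of 2 or more probe sets past 2-fold, the 25 in each direction whose weakest probe set differed most, signals under 50 set to 50; and from each list up to 6 members whose probe sets agreed in side, ranked likewise, up to 3 past 2-fold on the other side from the list's median, and, where under 2 members had several probe sets, up to 3 by their brightest. DNAJC9, GPSM2, JADE1, MKI67 and SLFN5 were chosen after their values were seen. The members and the 83 gene lists were chosen with earlier results of these data known. The count procedure was run on simulated data with planted differences well past 2-fold. That run checked that planted genes were recovered and set no limit on false calls, so it does not check the counts. Python 3.11.15, numpy 2.4.6, pandas 2.3.3 and matplotlib 3.10.9 were used. Promoters are 300-base RefSeq windows, the first listed per gene. The alternatives tried were the deposited values, median centring, the floor, the filter, the probe sets used and the fold.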

Additional observations from a re-analysis of the deposited data

How the results depend on the processing

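Counts of higher and lower genes moved with the filter and the fold. With no filter on dim probe sets 2032 genes were higher and 1813 lower, and 149 and 113 by every probe set. With the brightest 25% of probe sets the counts were 252 and 273, and 31 and 36 by every probe set. Without probe sets whose names mark possible cross-hybridisation, 48 and 32 were called by every probe set. At 1.5-fold 1606 and 1649 were called, 285 and 278 by every probe set, and at 3-fold 192 and 126, with 15 and 4 by every probe set. Centring on medians gave 503 higher and 717 lower. Under the alternatives run, 0 of 662 list values and 0 of 1293 values of named genes past 2-fold counted as reversed in sign. By at least the pooled SD between probe sets, 5 and 42 moved. A list could count as reversed only where its main median lay well away from 0. Medians near 0 could change sign without being counted, so the 0 of 662 does not check those lists. No paired analysis was possible because each construct has 1 array and the labels give no shared replicate. Leaving out a replicate was not possible for the same reason. Signals near background limit dim genes, and without replicate arrays the spread between cultures is unknown.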

Other observations

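Probe sets that carry no gene symbol also differed by 2-fold or more in some cases. They were counted singly, where each gene was counted by its brightest probe set, and brightness was not matched. Their shares are therefore not directly comparable with those of genes. Of 2773 such probe sets past the filter, 124 (4.47%) were at least 2-fold higher with stable Set8b and 153 (5.52%) lower. The median of the 2773 was -0.03 on the log2 scale.

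Some genes that are neighbours on a chromosome differed in the same direction. Runs of at least 3 adjacent measured genes that all counted as higher, or all as lower, were looked for after the data were seen. Signals of the run members are not given here, so dim members are not marked. The longest held 5 genes of chromosome 1, all higher: S100A11, an S100 calcium-binding protein, CCDST, LCE1E, LCE1B and SPRR4, genes of the epidermal differentiation cluster. On chromosome 16 the osteoblast cadherin CDH11, LINC00920 and BEAN1 were higher, and ATF7IP2, EMP2 and NUBP1 lower. The other runs, all lower, were C18orf54, RAB27B and TCF4 on chromosome 18, ABCB5, SP8 and SP4 on chromosome 7, and EYA1, MSC-AS1 and TRPA1 on chromosome 8. How many such runs chance would give was not tested.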
